A study of Mus musculus with 4 samples.

Results

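The 10 genes described here, Atf4, Ddit3, Xbp1, Hspa5, Herpud1, Trib3, Asns, Chac1, Sesn2 and Dnajb9, are transcription factors and target genes of the unfolded protein response and of the integrated stress response. They were chosen by symbol, and each of the 10 was found by its mouse Ensembl identifier in all 4 count tables, among 37140 genes that the tables share. RNA-seq was done on flow-sorted hematopoietic stem cells (HSCs, Lin- cKit+ Sca1+ CD48- CD150+) and on HSCs sorted as CD41low/CD9low (CD41low/CD9low cells in the text), each from Gfi1b WT and Gfi1b KO mice, with 1 library per genotype and population. The first population is also called CD41+/CD9+ HSCs in the study's text, but neither labels nor methods name a gate on CD41 or CD9 for it, so it may include CD41low/CD9low cells. The sample titles write Gfi1 where the genotype labels write Gfi1b, and the genotype labels are followed here. All mice were C57Bl6 by their labels. Per the study's methods, KO mice were Gfi1b fl/fl and controls Gfi1b wt/fl, both with Rosa-Cre and both given tamoxifen 2 weeks before harvest, so that the control cells also carried Cre, were exposed to tamoxifen and could lose 1 floxed allele, whereas the series' design text gives the floxed mice as with or without ROSA-Cre. Cre under the Rosa26 promoter acts in most tissues, so deletion was not confined to HSCs. Marrow of tibiae, femora and humeri of 10 WT or 5 KO mice was pooled before sorting, and the spread between mice can therefore not be measured.

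When misfolded proteins gather in the endoplasmic reticulum (ER), 3 membrane sensors respond. Perk (Eif2ak3) phosphorylates the translation factor eIF2α, which slows protein synthesis while letting Atf4 mRNA be translated; Ire1 (Ern1) splices Xbp1 mRNA; and Atf6 is cut in the Golgi into a transcription factor. The integrated stress response is the eIF2α arm, which amino acid shortage, heme shortage and double-stranded RNA also start, through other kinases. Its factor Atf4 turns on amino acid synthesis and transport genes and, under prolonged stress, Ddit3 (Chop). HSCs are known for a low rate of protein synthesis, and both responses have been studied in them as a switch between survival and loss of stressed cells. Much of this signalling is set by translation, splicing and cleavage. The values here are mRNA counts per gene, which hold none of these steps, and the count of Xbp1 does not separate its spliced from its unspliced form.

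Counts on genes summed to 50781007 for WT HSCs, 41690708 for KO HSCs, 12732079 for WT CD41low/CD9low cells and 19123185 for KO CD41low/CD9low cells. Gfi1b, the targeted gene, had 9256 counts in WT HSCs, 49910 in KO HSCs, 611 in WT CD41low/CD9low cells and 9741 in KO CD41low/CD9low cells. Its KO/WT ratio was 6.66 (6.51 to 6.81, 95% interval) for HSCs and 10.6 (9.78 to 11.5) for CD41low/CD9low cells. Reads over the floxed exons 2 to 4 are not separated in a count of the whole gene, so these counts do not check the deletion, and WT and KO below mean the libraries labelled so. All 10 HSC markers, among them Kit, Ly6a, Slamf1 and Procr, were above 0 in each of the 4 libraries. Itga2b, which encodes CD41, and Cd9 were lower in CD41low/CD9low cells (136 and 205 CPM of Itga2b in WT and KO) than in HSCs (547 and 691 CPM).

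All ratios were computed on counts normalised by the median of ratios within each WT and KO pair. Their intervals are exact 95% intervals that cover counting error only, since 1 library per group leaves no replicate check and no p-value within a population. Following the limits of the study, a gene was counted as higher above a ratio of 1.5 and as lower below 0.6. Fewer cells of a type and less RNA per cell cannot be told apart in these bulk samples.

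In HSCs, Trib3 and Atf4 were below the lower limit, Sesn2 and Chac1 above the upper limit, and the other 6 genes in between. This makes 2 of 10 genes lower, against 10.3% of the 15910 genes with at least 10 counts, and 2 of 10 higher, against 14.2%. Trib3 and Chac1 were lower in CD41low/CD9low cells, against 12.1% of 14844 genes, and Dnajb9 was higher, against 13.4%. The median log2 KO/WT ratio of the 10 genes was -0.20 in HSCs and -0.23 in CD41low/CD9low cells, where the median of all genes was 0.00 in both. The KO value was below the WT value for 7 genes in HSCs and 6 in CD41low/CD9low cells, beside 49.9% and 49.4% of all genes. Atf4, Hspa5 and Trib3 were below WT in both populations. These are 3 of 10 members, beside 27.6% of 14144 genes, so the share below WT in both populations was near that of all genes. All 10 genes had at least 10 counts in each pair, but Chac1 had at most 19 in any library.

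**Figure D1:**
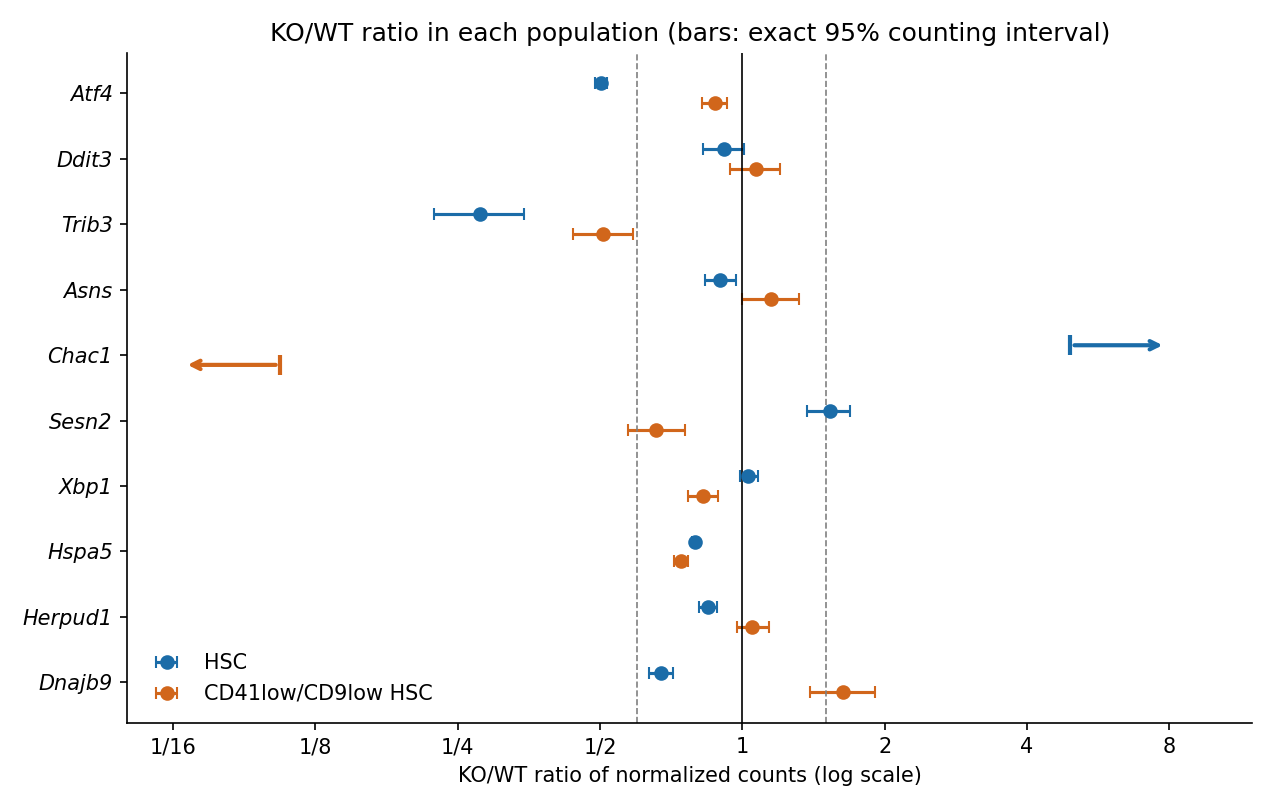
KO/WT ratio of normalized counts (log scale) for each of the 10 genes in HSCs (blue) and CD41low/CD9low cells (orange), with exact 95% counting intervals as bars, arrows at the bound for Chac1, whose count was 0 in 1 library of each pair, and dashed lines at 0.6 and 1.5. Trib3 lies left of the lower line in both populations (0.279 and 0.507), while Sesn2 (1.53 and 0.658) and Dnajb9 (0.672 and 1.63) lie on opposite sides of 1.

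Atf4 is the transcription factor at the centre of the integrated stress response. It lies on chromosome 15 (80255184 to 80257541, plus strand, GRCm38). Its normalised count was 13596.6 in WT and 6818.8 in KO HSCs, from 15112 and 6135 counts, and 2229.1 in WT and 1950.3 in KO CD41low/CD9low cells, from 1819 and 2390 counts. The KO/WT ratio was 0.502 (0.487 to 0.517) for HSCs and 0.875 (0.823 to 0.93) for CD41low/CD9low cells. Both intervals lie below 1, but only the ratio in HSCs passed the limit. The log2 ratio in CD41low/CD9low cells was higher by 0.80 (0.71 to 0.90, counting error only), a difference that could not be tested because a fit with separate genotype effects leaves no residual degrees of freedom.

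Trib3 encodes a pseudokinase that is induced by Atf4 and Ddit3 and dampens their activity. It lies on chromosome 2 (152337422 to 152344032, minus strand). It had 461 counts in WT and 104 in KO HSCs, which gave 414.8 and 115.6 normalised counts and a ratio of 0.279 (0.223 to 0.345), the lowest of the 9 genes with a ratio. In CD41low/CD9low cells it had 441 and 336 counts, or 540.4 and 274.2 normalised counts, and a ratio of 0.507 (0.439 to 0.586). A ratio below 0.6 in both populations was seen for Trib3 alone among the members and for 2.45% of all genes.

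Ddit3, the factor Chop that promotes cell death in prolonged ER stress, differed little between WT and KO. It lies on chromosome 10 (127290774 to 127296288, plus strand). Its normalised count was 821.4 in WT and 751.3 in KO HSCs, a ratio of 0.915 (0.827 to 1.01), and 539.2 and 574.5 in CD41low/CD9low cells, a ratio of 1.07 (0.944 to 1.20). Both intervals include 1. Ddit3 overlaps Mars, a tRNA synthetase gene on the opposite strand with 4939 (WT HSCs), 3109 (KO HSCs), 1384 (WT CD41low/CD9low cells) and 1704 (KO CD41low/CD9low cells) counts. The strand setting of the counting is not given in the sources used here, and reads of these 2 genes may therefore not be fully separated.

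Among the metabolic targets of Atf4, Asns, which makes asparagine, lies on chromosome 6 (7675169 to 7693254, minus strand). Its normalised count was 1534.0 in WT and 1379.3 in KO HSCs, a ratio of 0.899 (0.835 to 0.968), and 389.7 and 446.4 in CD41low/CD9low cells, a ratio of 1.15 (0.996 to 1.32). It passed neither limit, although Atf4 itself was at 0.502 in HSCs. Sesn2, an inhibitor of mTORC1 that is induced by several stresses, lies on chromosome 4 (132492032 to 132510501, minus strand). Its normalised count was 582.1 in WT and 888.1 in KO HSCs, a ratio of 1.53 (1.37 to 1.69) just above the upper limit, which its interval includes. In CD41low/CD9low cells the values were 498.8 and 328.0, a ratio of 0.658 (0.572 to 0.757) that was between the limits. The direction of Sesn2 was thus opposite in the populations, with counting intervals on either side of 1. The non-coding gene Gm12981, which overlaps it on the same strand, had at most 25 counts.

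Chac1, which degrades glutathione and is a target of the Atf4 and Ddit3 arm, was near the limit of detection. It lies on chromosome 2 (119351229 to 119354381, plus strand). It had 0 counts in WT HSCs, 12 in KO HSCs, 19 in WT CD41low/CD9low cells and 0 in KO CD41low/CD9low cells. A count of 0 allows up to 3 counts in a library, which is 0.0591 CPM in WT HSCs and 0.157 CPM in KO CD41low/CD9low cells. Set against this floor, with the other count taken as it is, Chac1 was at least 4.94-fold higher in KO than in WT HSCs and at least 9.51-fold lower in KO than in WT CD41low/CD9low cells. The exact 95% interval, which also covers the counting error of the other library, is wider: it starts at a ratio of 3.43 in HSCs and ends at 0.143 in CD41low/CD9low cells. These bounds rest on at most 19 reads.

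Hspa5 (BiP), the main chaperone of the ER lumen and a target of Atf6 and Xbp1, was the member with the highest level. It lies on chromosome 2 (34771970 to 34777547, plus strand). Its normalised count was 35081.1 in WT and 27840.8 in KO HSCs, a ratio of 0.794 (0.781 to 0.806), and 7737.6 and 5743.9 in CD41low/CD9low cells, a ratio of 0.742 (0.717 to 0.768). The KO value was lower in both populations by similar amounts, and neither ratio passed the limit.

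Xbp1, the factor made active by Ire1 and also a plasma cell gene, lies on chromosome 11 (5520659 to 5525893, plus strand). Its normalised count was 4056.9 in WT and 4193.5 in KO HSCs, a ratio of 1.03 (0.99 to 1.08), and 1604.1 and 1326.8 in CD41low/CD9low cells, a ratio of 0.827 (0.769 to 0.89). The summed level of 7 plasma cell markers, Xbp1 included, was 165 CPM in WT HSCs, 125 in KO HSCs, 124 in WT CD41low/CD9low cells and 96.7 in KO CD41low/CD9low cells. Xbp1 itself made up most of this in each of the 4 libraries, with 88.8, 90.5, 103 and 85 CPM in the same order. Jchain, a defining plasma cell gene, had 3343 counts in WT HSCs and 1114 in KO HSCs, but 0 in WT CD41low/CD9low cells and 10 in the KO cells. Mzb1 had at most 29 counts in HSCs and 0 in CD41low/CD9low cells. Tnfrsf17 had 14 (WT) and 5 (KO) counts in HSCs and 0 in CD41low/CD9low cells. Its level in HSCs (0.276 and 0.12 CPM) was near or under the floor of 3 counts in CD41low/CD9low cells (0.236 and 0.157 CPM). Prdm1 was lower in CD41low/CD9low cells than in HSCs in both genotypes. Sdc1, of the same list, went the other way. It was at 6.36 (WT) and 3.74 (KO) CPM in HSCs and at 20.4 and 9.1 CPM in CD41low/CD9low cells. Irf4 was mixed, with 58 (WT) and 38 (KO) counts in HSCs and 0 and 40 in CD41low/CD9low cells. The KO/WT ratio of Jchain in HSCs was 0.412. The part of plasma cell RNA in the Xbp1 values was not tested.

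The remaining 2 genes act in folding and degradation at the ER. Herpud1, a membrane protein that organises the degradation of ER proteins, lies on chromosome 8 (94386438 to 94395377, plus strand) and had 4668.7 normalised counts in WT and 3944.5 in KO HSCs, a ratio of 0.845 (0.809 to 0.882). In CD41low/CD9low cells the values were 1313.7 and 1383.1, a ratio of 1.05 (0.975 to 1.14). Dnajb9 (ERdj4), a cochaperone of BiP and a target of Xbp1, lies on chromosome 12 (44205559 to 44210326, minus strand). It had 2990.7 normalised counts in WT and 2009.5 in KO HSCs, a ratio of 0.672 (0.634 to 0.712), and 277.0 and 451.3 in CD41low/CD9low cells, a ratio of 1.63 (1.39 to 1.91). Its log2 ratio was higher in CD41low/CD9low cells by 1.28 (1.04 to 1.52, counting error only), a difference of a size not apart from that of Sesn2, whose difference was -1.21 (-1.46 to -0.97).

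The promoters of the members were searched for the response elements of these pathways. The windows, from RefSeq (GRCm38.p6), run from 250 bases before to 50 after the start site, all 10 members were matched, and both strands were searched. The ER stress response element ERSE (CCAAT and CCACG, 9 bases apart), which Atf6 and Xbp1 bind beside NF-Y, was found in Hspa5 alone among the members, 65 to 47 bases before the start, and in 0.119% of 32851 windows. The related ERSE-II (ATTGG and CCACG, 1 base apart) was found in Herpud1 alone, and in 0.0365% of windows. The core of the C/EBP-ATF response element CARE (TGATGNAA), which Atf4 binds with C/EBP factors, was found in Asns, Chac1, Herpud1 and Trib3, and in 3.97% of windows. Its match in Trib3 lay 14 to 21 bases after the start and is not printed. No member held the core of the unfolded protein response element (TGACGTGG, 0.676% of windows) or a form of the GFI1B motif (AAATC followed by C and then GC, with 1 free base before each, 0.98%). The matches are descriptions of letters, and binding was not measured. The start is that of RefSeq, and the stretches of Hspa5 and Asns lie inside the gene positions given above, which come from GENCODE M21. The stretches around the matches upstream of the start are given 5′ to 3′ on the strand of the gene, with the matches in capitals, because they set the 4 genes with such an element beside their unlike ratios.
Hspa5, chr2:34772020-34772048, plus strand, ERSE: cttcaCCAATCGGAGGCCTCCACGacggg
Herpud1, chr8:94386277-94386427, plus strand, CARE core and then ERSE-II: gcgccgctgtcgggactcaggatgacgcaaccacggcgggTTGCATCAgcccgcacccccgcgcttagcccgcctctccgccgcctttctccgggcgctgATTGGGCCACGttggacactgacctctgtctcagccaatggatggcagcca
Asns, chr6:7693214-7693243, minus strand, CARE core: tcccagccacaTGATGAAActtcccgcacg
Chac1, chr2:119351009-119351096, plus strand, CARE core: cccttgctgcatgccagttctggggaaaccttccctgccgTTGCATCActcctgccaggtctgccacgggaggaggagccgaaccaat
The members with a CARE core had KO/WT ratios in HSCs of 0.899 (Asns), 0.845 (Herpud1) and 0.279 (Trib3). In CD41low/CD9low cells these were 1.15, 1.05 and 0.507. Chac1, the remaining of these 4 members, was near the limit of detection. It was at least 4.94-fold higher in KO HSCs against the floor of 3 counts (12 against 0 counts, exact interval from 3.43). In KO CD41low/CD9low cells it was lower (0 against 19 counts, exact interval up to 0.143).

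Levels were compared between genes as CPM per kilobase of exon, where CPM scales each count to the total count on genes of its library. Hspa5 was highest in each of the 4 libraries, at 182 in WT HSCs, 142 in KO HSCs, 117 in WT CD41low/CD9low cells and 87.0 in KO CD41low/CD9low cells. Atf4 came next, at 126, 62.4, 60.6 and 53.0 in the same order, followed by Herpud1 (43.8, 36.5, 36.1 and 38.0) and Xbp1 (27.3, 27.9, 31.7 and 26.2). This order of the top 4 was the same in each library, and the Atf4 level of WT HSCs stood above those of the other 3 libraries, which lay within 53.0 to 62.4.

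**Figure D2:**
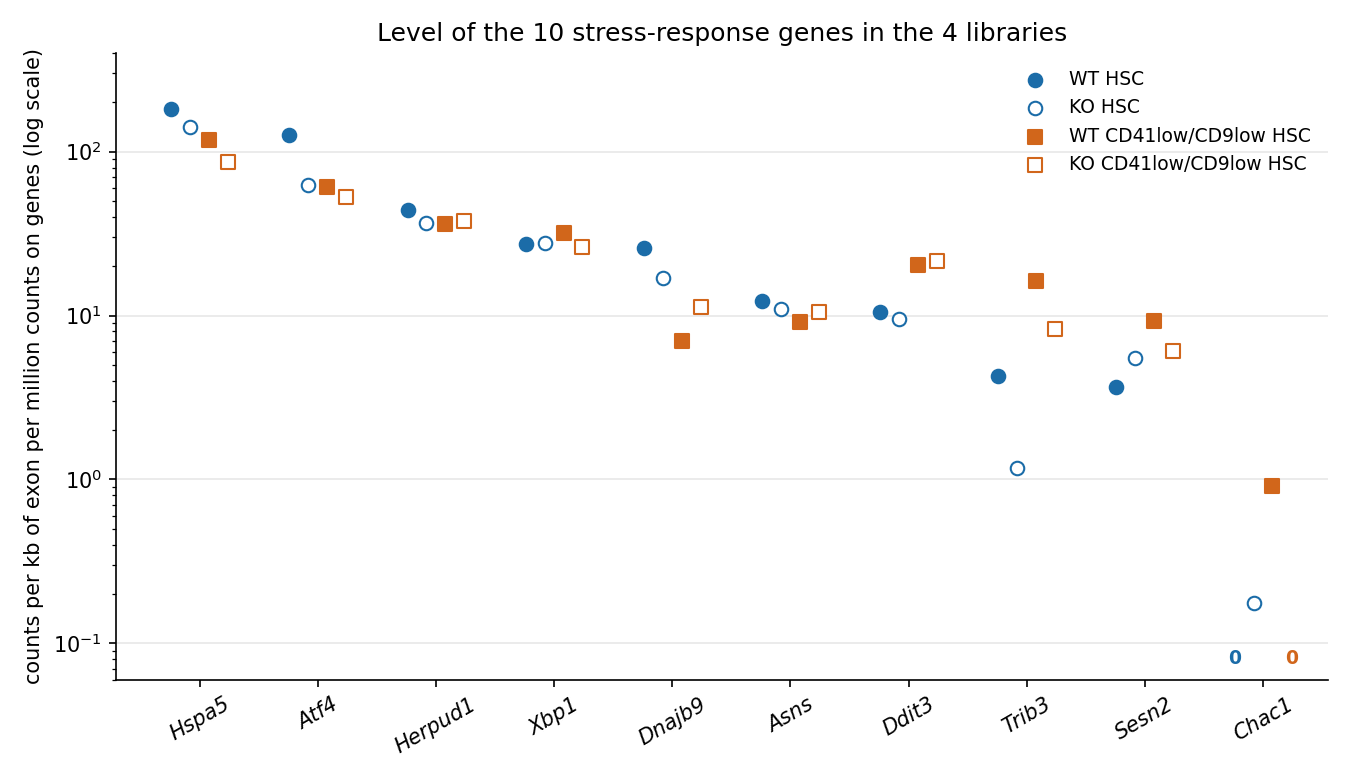
Level of each gene in CPM per kilobase of exon (log scale), 1 point per library, with circles for HSCs, squares for CD41low/CD9low cells, filled for WT and open for KO, and 0 printed where Chac1 had no count. Hspa5 and Atf4 lie highest in all 4 libraries, and Trib3 spans from 1.17 in KO HSCs to 16.3 in WT CD41low/CD9low cells.

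The lower part of the order changed between libraries. Dnajb9 followed Xbp1 in WT HSCs at 25.7, not apart from Xbp1 by counting error, and was above Chac1 alone in WT CD41low/CD9low cells at 6.96. Ddit3 was at 10.5 (WT) and 9.47 (KO) in HSCs and at 20.2 (WT) and 21.5 (KO) in CD41low/CD9low cells, where it was above Asns (12.3, 10.9, 9.13 and 10.5). Trib3 was at 4.27, 1.17, 16.3 and 8.27 and Sesn2 at 3.67, 5.52, 9.2 and 6.05. Trib3 and Sesn2 in WT HSCs, Sesn2 and Asns in WT CD41low/CD9low cells, and Dnajb9 and Asns in KO CD41low/CD9low cells were also not apart by counting error. Among detected genes, Hspa5 stood above 97.5% to 99.1% of genes and Atf4 above 95.2% to 98.6%, whereas Trib3 ranged from 37.9% in KO HSCs to 76.8% in WT CD41low/CD9low cells.

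The populations themselves differed in these genes within each genotype. In WT libraries, the CD41low/CD9low HSC over HSC ratio was 3.63 (3.18 to 4.14) for Trib3, 2.39 (2.1 to 2.71) for Sesn2 and 1.83 (1.63 to 2.05) for Ddit3, and Chac1 was at least 24.0-fold higher against the floor of 3 counts (exact interval from 17.7). Atf4 at 0.457 (0.435 to 0.479) and Dnajb9 at 0.258 (0.224 to 0.295) were lower. This makes 4 of 10 genes above 1.5, against 19% of 15636 genes, and 2 below 0.6, against 19.9%. In KO libraries, Trib3 at 6.75 (5.4 to 8.49) and Ddit3 at 2.18 (1.95 to 2.42) were higher, against 19.2% of 15419 genes, and Hspa5 at 0.587 (0.572 to 0.603) and Chac1 (at least 1.92-fold lower against the floor, with an exact interval up to a ratio of 0.752, which is inside the limits) were lower, against 20.4%. Trib3 and Ddit3 were above 1.5 in both genotypes, as were 9.06% of all genes. Sesn2, at 1.05 (0.93 to 1.19), had an interval that includes 1 in the KO libraries. Hspa5 was at 0.614 in WT and 0.587 in KO, on either side of the limit with little difference in size. Population, counting table and preparation cannot be told apart here, because the 2 populations were counted on gene tables of unlike length (38293 and 41214 genes).

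**Figure D3:**
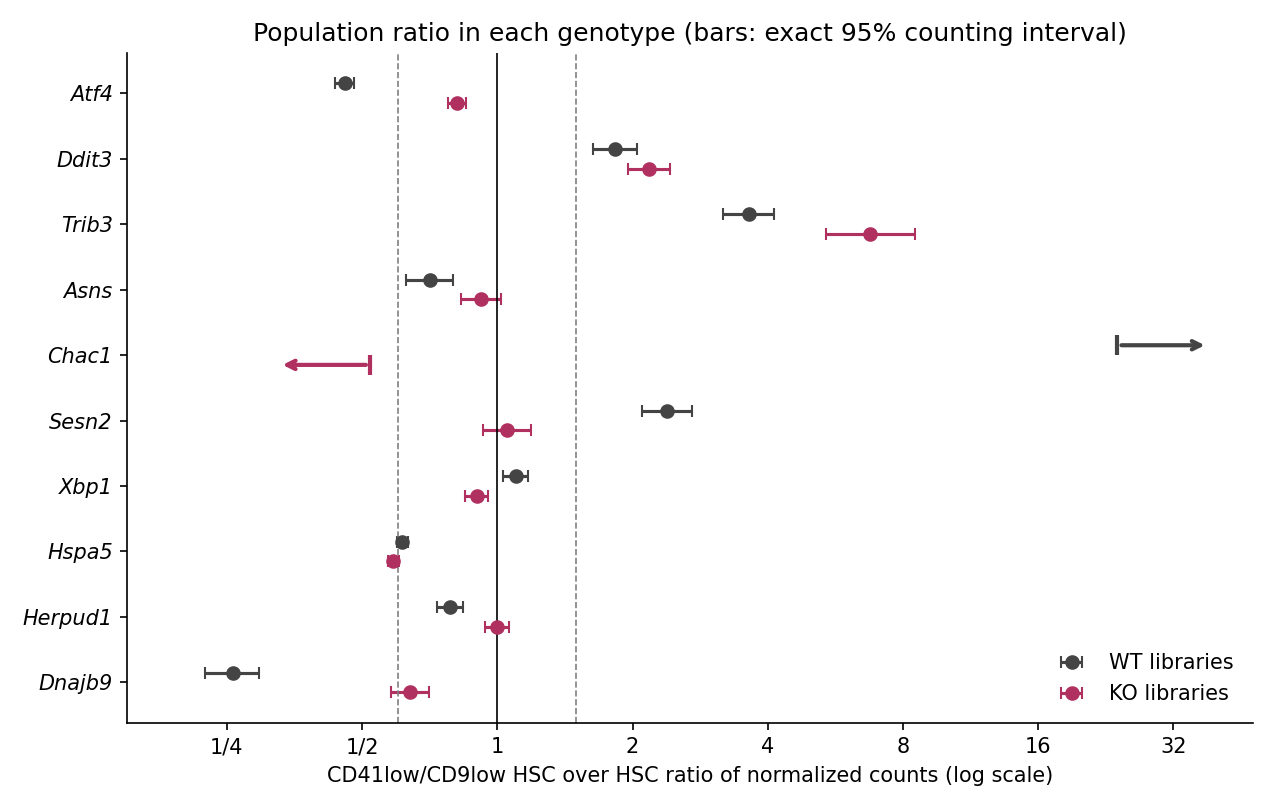
CD41low/CD9low HSC over HSC ratio of normalized counts (log scale) for each gene in the WT (grey) and KO (red) libraries, with exact 95% counting intervals as bars, arrows at the bound for Chac1 and dashed lines at 0.6 and 1.5. Ddit3 (1.83 and 2.18) and Trib3 (3.63 and 6.75) lie right of the upper line in both genotypes, and Atf4 (0.457 and 0.814) and Dnajb9 (0.258 and 0.639) lie left of 1 in both.

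The test that the design allows takes the 2 populations as repeats of the genotype effect. All 4 libraries entered a quasi-likelihood fit of edgeR that had a population term and 1 residual degree of freedom. Both populations of a genotype may come from the same pool of mice, and the HSC gate may include CD41low/CD9low cells. The p-values of this fit therefore do not measure the spread between mice. Atf4 was lower in KO (log2 -0.61, Benjamini-Hochberg adjusted p = 0.00583 over 16262 genes) and Trib3 was lower (log2 -1.40, adjusted p = 0.000246), both in 2 of 2 populations. These were 2 of 10 members, against 1.19% of all genes called lower, while no member was called higher, against 1.62%. With DESeq2 neither was called (adjusted p = 0.198 for Atf4 and 0.0657 for Trib3), and over its other alternatives the adjusted p in edgeR's fit ran from 0.0067 to 1.0 for Atf4 and from 0.000644 to 1.0 for Trib3, so these calls depended on the setting. Hspa5 had a log2 change of -0.39 and an unadjusted p of 0.00633 in edgeR's test, which gave an adjusted p of 0.148. The other 7 members had adjusted p-values of at least 0.977 in the same edgeR fit, among them Dnajb9 and Sesn2, whose ratios pointed in opposite directions in the populations. The log2 ratios of Atf4 and Trib3 had a common direction but also differed between the populations, by 0.80 and 0.86.

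Immediate-early genes, which are induced within minutes of many stimuli and of cell handling, were lower along with Atf4 and Trib3 in KO HSCs. All 18 genes of that list were lower in KO than in WT HSCs, with a median log2 ratio of -1.72, and their summed level was 5700 CPM in WT and 2030 CPM in KO HSCs. Fos was at a ratio of 0.24, and Atf3, a stress-induced factor that Atf4 also controls, had 930 counts in WT and 85 in KO HSCs. In CD41low/CD9low cells the summed level was 765 CPM in WT and 758 CPM in KO, and 10 of the 15 genes with enough counts were lower in KO, with a median of -0.32. The neutrophil and monocyte markers differed in CD41low/CD9low cells, where 9 of 9 were lower in KO and the sum was 1040 CPM in WT and 265 CPM in KO, beside 408 and 500 CPM in WT and KO HSCs. Summed levels of the other marker lists, in the order WT HSCs, KO HSCs, WT CD41low/CD9low cells and KO CD41low/CD9low cells, were 433, 917, 92.2 and 197 CPM for megakaryocyte and platelet markers (of which Itgb3 alone 202, 663, 51.4 and 141 CPM) and 58.8, 89, 32.1 and 3.97 CPM for mast cell and basophil markers. They were 79.5, 41, 42.6 and 17.6 CPM for erythroid markers, 211, 266, 220 and 206 CPM for plasmacytoid dendritic cell markers, and 135, 198, 97.7 and 85.9 CPM for stromal and endothelial markers. B cell markers (22.9, 18.4, 31.3 and 28.7 CPM) and T and NK cell markers (14.3, 7.56, 13.7 and 11.3 CPM) were low in each library, and most of the B cell sum was Cd79b. Reads assigned to no gene also differed, with 80.0 (WT) and 105.3 (KO) per 100 counts on genes in HSCs and 62.0 (WT) and 60.1 (KO) in CD41low/CD9low cells. The part of these in the ratios of the members was not tested.

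The wider pathways were read from 7 lists with 121 genes. Of the 118 genes with enough counts in HSCs, 3 were higher (2.54%) and 9 lower (7.63%), with a median log2 ratio of -0.09. Of 116 in CD41low/CD9low cells, 7 were higher (6.03%) and 5 lower (4.31%), with a median of -0.05. These shares are below those of all genes (14.2% and 10.3% in HSCs, 13.4% and 12.1% in CD41low/CD9low cells). At 50 counts or more, 2.65% and 5.31% of list genes were higher and lower in HSCs against 10.8% and 5.92% of all genes, and 3.67% and 2.75% in CD41low/CD9low cells against 8.12% and 5.85%. The numbers of list genes below WT that follow stand beside 49.9% of all genes in HSCs and 49.4% in CD41low/CD9low cells.

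Most of the upstream genes stayed between the limits, with ratios on both sides of 1. Of 12 kinases, phosphatase subunits and ER sensors, 5 were below WT in HSCs (median log2 0.06, which became -0.03 after the exon length correction) and 8 in CD41low/CD9low cells (median -0.06). Perk (Eif2ak3) was at a ratio of 0.965 (0.909 to 1.02) in HSCs, beside 1.45 (1.28 to 1.63) in CD41low/CD9low cells. Ire1 (Ern1) was at 1.22 (1.19 to 1.26) and 0.918 (0.876 to 0.962), and Atf6 at 1.26 (1.20 to 1.32) and 0.808 (0.74 to 0.883). None of these 3 sensors passed a limit. Ppp1r15a (Gadd34), which removes the phosphate from eIF2α and is itself induced by the response, had 16807.7 normalised counts in WT and 8437.0 in KO HSCs, a ratio of 0.502 (0.489 to 0.516) like that of Atf4, and was at 0.895 (0.822 to 0.976) in CD41low/CD9low cells. Mbtps2, a protease that cuts Atf6, was at 1.63 (1.52 to 1.74) in HSCs.

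Among 23 further factors and targets of Atf4 and Ddit3, 17 of the 22 with enough counts were below WT in HSCs (median log2 -0.33) and 13 of 21 in CD41low/CD9low cells (median -0.22). In HSCs 5 were lower and 1 was higher, against 10.3% and 14.2% of all genes, and in CD41low/CD9low cells 3 were lower and 2 were higher, against 12.1% and 13.4%. Cebpb, a partner of Atf4, was at 0.328 (0.269 to 0.397) in HSCs, beside 0.511 (0.448 to 0.583) in CD41low/CD9low cells. Nupr1, a stress-induced chromatin protein, was higher in both, at 2.22 (1.99 to 2.48) and 1.83 (1.5 to 2.23). Trib1, a pseudokinase related to Trib3, was at 0.481 (0.419 to 0.552) and Ddit4, an inhibitor of mTORC1, at 0.514 (0.463 to 0.57) in HSCs. In the edgeR quasi-likelihood fit to all 4 libraries, 3 of 118 list genes were called: Cebpb (log2 -1.29, adjusted p = 0.000288) and Ppp1r15a (log2 -0.60, adjusted p = 0.00801) were lower and Nupr1 was higher (log2 1.01, adjusted p = 0.0198). Of all genes tested, 1.19% were called lower and 1.62% higher, so the share of list genes called was near that of all genes. With DESeq2 none of them was called (adjusted p = 0.0612, 0.246 and 0.325).

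Of 9 amino acid transporters, many of them targets of Atf4, 6 were below WT in HSCs (median log2 -0.42) and 3 of 8 in CD41low/CD9low cells (median 0.15). Of all genes, 49.9% and 49.4% were below WT. In HSCs 3 were lower and 0 higher, against 10.3% and 14.2% of all genes. In CD41low/CD9low cells 1 was lower and 1 higher, against 12.1% and 13.4%. Slc7a11, which imports cystine, had 157.5 normalised counts in WT and 55.6 in KO HSCs, a ratio of 0.353 (0.252 to 0.486). Slc1a4, which carries neutral amino acids, was at 0.541 (0.445 to 0.655) in HSCs and at 0.6 (0.447 to 0.804), just under the limit, in CD41low/CD9low cells.

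The 20 cytosolic tRNA synthetases, which charge tRNAs and include many Atf4 targets, had small ratios of like direction. Of these, 19 were below WT in HSCs (median log2 -0.26), where 49.9% of all genes were below WT. With TMM, total count scaling and the exon length correction, 19, 20 and 19 were. The shares of all genes were then 50.7%, 51.9% and 50.1%. Aars was the lowest at a log2 ratio of -0.46 and Farsb the highest at 0.01. In CD41low/CD9low cells 15 of 20 were below WT (median -0.14), where 49.4% of all genes were. None passed a limit and none was called in the edgeR fit. The genes of such a list are not independent replicates, and a shift of this size between 2 libraries has no replicate check.

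Of 16 ER chaperones and disulfide isomerases, 11 were below WT in HSCs (median log2 -0.08) and 14 in CD41low/CD9low cells (median -0.24), and none was called in the edgeR fit. Sdf2l1, a partner of BiP, was at 0.56 (0.484 to 0.647) in CD41low/CD9low cells, the only one of the list past a limit. Of all genes, 12.1% were below 0.6 there. For the list of ER-associated degradation, 8 of 18 genes were below WT in HSCs (median 0.14) and 5 of 18 in CD41low/CD9low cells (median 0.09). In HSCs 1 was higher, against 14.2% of all genes, and in CD41low/CD9low cells 4 were, against 13.4%. None was lower, against 10.3% and 12.1%. Erlec1, an ER lectin, was higher in both populations at 1.62 (1.5 to 1.76) and 1.7 (1.39 to 2.08). Ube2g2, a ubiquitin-conjugating enzyme, was at 1.57 (1.41 to 1.75) and Herpud2, a relative of Herpud1, just above the limit at 1.5 (1.28 to 1.77) in CD41low/CD9low cells. Of 23 ER translocation and secretory transport targets of Xbp1, 16 of 21 were below WT in HSCs (median -0.04) and 9 of 21 in CD41low/CD9low cells (median 0.04), and none passed a limit.

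**Figure D4:**
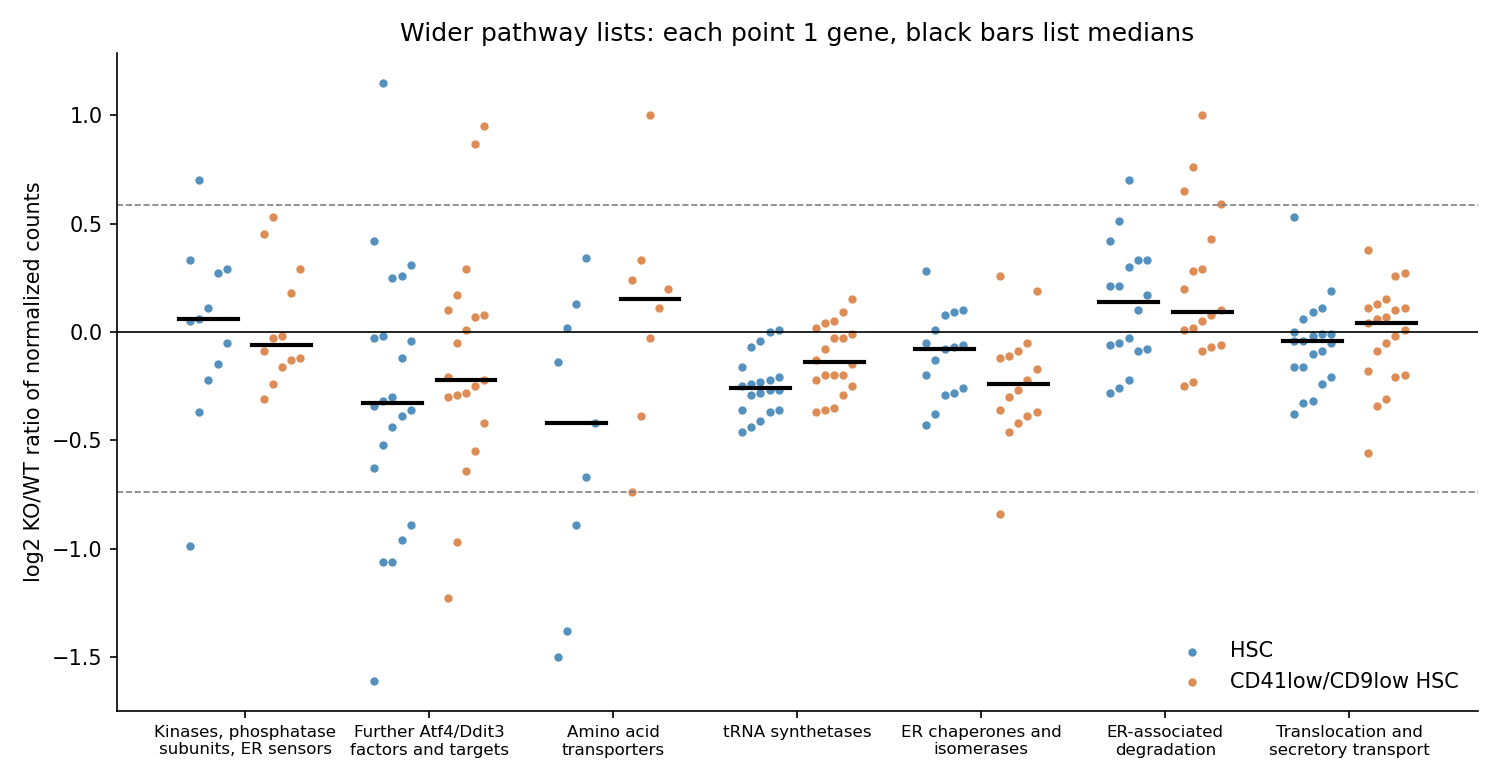
log2 KO/WT ratio of each gene with at least 10 counts in the 7 wider lists, HSCs in blue and CD41low/CD9low cells in orange, with list medians as black bars and dashed lines at ratios of 0.6 and 1.5. Cbs, with 16 counts in WT and 0 in KO CD41low/CD9low cells, has no finite ratio and is not drawn, and 19 of the 20 tRNA synthetases lie below 0 in HSCs, within -0.46 to 0.01.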

How the data were processed

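RNA-seq libraries were made with the TruSeq Stranded mRNA kit and sequenced on an Illumina HiSeq 2000. The authors aligned reads to mm10 with TopHat 2.0.10, processed them with Samtools and counted them on Ensembl genes with HTSeq. The deposited values are raw counts per gene and library, without normalization. The settings of HTSeq and the Ensembl release used are not given in the sources used here. Reads on no gene, or on more than 1, were left out of library sizes, at 60.1 to 105.3 (no gene) and 0.44 to 0.84 (ambiguous) reads per 100 counts.

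Symbols, positions and summed exon lengths were taken from GENCODE M21 (GRCm38). All 121 list symbols matched, 1 of them through a RefSeq synonym. Each pair of libraries was normalised by the median of ratios, as in DESeq, over genes reaching 10 counts in either library (KO/WT ratio of size factors 0.81 in HSCs and 1.5 in CD41low/CD9low HSCs). Ratios carry exact (Clopper-Pearson) 95% intervals for counting error. At these depths a count of 3, the floor used for a count of 0, was 0.0591 to 0.236 CPM. The fit to 4 libraries used edgeR 4.0.16 (glmQLFit, TMM, genes reaching 10 counts in any library, Benjamini-Hochberg adjusted p under 0.05), and the script was tested on simulated data. Alternatives were DESeq2 1.42.0, other normalizations and filters, a pseudocount of 1, a lower limit of 1/1.5, and a correction by the running median ratio over 500 genes of similar exon length. From each list the text names up to 4 genes per population with the largest ratio past a limit and at least 50 counts, and genes called in the fit. The eIF2α kinase Perk, Ire1 and Atf6 were named for their role, and Aars and Farsb as the ends of their list after their values were seen. The members and lists were chosen with earlier results of these data known. Of all genes compared, Gm6568 alone, which had 0 counts in each library, had transcripts nearly identical (93.3%) to those of a member (Dnajb9).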

Additional observations from a re-analysis of the deposited data

Results flagged for a closer look

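For 3 of the 10 genes the KO/WT ratio pointed in opposite directions in the 2 populations, with counting intervals that did not include 1 in either. Ddit3, Xbp1, Herpud1 and Asns also had ratios on opposite sides of 1, with an interval that includes 1 in at least 1 population. Whatever their intervals, Ddit3, Herpud1, Asns and Dnajb9 were below 1 in HSCs and above 1 in CD41low/CD9low HSCs, as were 21.6% of 14144 genes. Sesn2, Chac1 and Xbp1 went the other way, and the share of all genes in that direction was not computed. Nor was a share of all genes computed for opposite directions with both intervals apart from 1, so the 3 genes have no such comparison. Sesn2 was at 1.53 in HSCs and 0.658 in CD41low/CD9low HSCs. Dnajb9 was at 0.672 in HSCs and 1.63 in CD41low/CD9low HSCs. Chac1 was at least 4.94-fold higher in KO than in WT HSCs (12 against 0 counts) and at least 9.51-fold lower in KO than in WT CD41low/CD9low HSCs (0 against 19 counts), both against a floor of 3 counts, with exact 95% intervals that start at a ratio of 3.43 and end at 0.143. The difference between the populations was not tested for any of them, because 4 libraries leave no residual degrees of freedom for an interaction.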

How the results depend on the processing

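The ratios of the 10 members were recomputed under 7 other settings, which gave 69 values in each population. The 3 other scalings moved all ratios of a population together by at most 0.02 on the log2 scale. In CD41low/CD9low HSCs all 69 values stayed within the counting interval of the main value, and in HSCs 63 did and none reversed a direction that the interval had set. The other 6 all came from the exon length correction, under which no ratio could be given for Chac1, Dnajb9 in HSCs was at 0.725 and Atf4 in HSCs at 0.542. That correction left 1 member above 1.5 in HSCs (main 2) and 1 below 0.6 in CD41low/CD9low HSCs (main 2), because Chac1 with a count of 0 has no value there, and 3 list genes below 0.6 in CD41low/CD9low HSCs (main 5). At 50 counts or more, 4 list genes were above 1.5 (main 7) and 3 below 0.6 in CD41low/CD9low HSCs. Scaled by total counts, 1 member was below 0.6 between the KO populations (main 2). In the edgeR fit to 4 libraries, 263 genes were higher and 194 lower with 2 members lower. DESeq2 gave 70 and 30 with 0 members, RLE normalization 145 and 95 with 1 member, at least 50 counts 80 and 48 with 1 member, and the fit without the population term 0 and 0 with 0 members, where 180 genes had an unadjusted p under 0.05 (1754 in the main fit of edgeR). The cause of these changes was not tested. The population term of the main fit compares WT and KO within each population. Beyond this, no paired analysis was possible because the labels give no replicate numbers, and leaving out a library leaves no residual degrees of freedom. Chac1, with at most 19 counts in a library, is limited by its counts.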
